A study of Drosophila melanogaster with 9 samples.

Results

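Succinate dehydrogenase, complex II of the respiratory chain, has 4 nuclear-encoded subunits in the fly, SdhA, SdhB, SdhC and SdhD. Sirup is the fly relative of the human assembly factor SDHAF4. RNA of these 5 genes, out of 17489 counted, was measured in the central brains of fasted, refed and sated *Drosophila melanogaster*. The genes were taken by their FlyBase symbols, and the set was put together because measured values of these libraries showed a difference for *Sirup* between feeding states and none of that size for the subunits. For these 5 genes the values are therefore a description, with no p-values, and any pass of a threshold by them is descriptive only.

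All flies were males of the strain w1118CS, kept in groups and 7 days old, and all samples carry the mark CD in their titles, the control diet of the study as opposed to its high sugar diet. Each library held RNA from 10 brains. Fasted flies had water alone from 5 PM until dissection, 20 h in all. Refed flies went through the same overnight fast and were given 400 mM D-glucose for 2 h from lights on at 9 AM. Sated flies had their regular food and were kept on water alone for 1 h before dissection. Each group had 3 libraries, called replicates by their label numbers. The paper's results text instead places the brains of refed flies 1 h after feeding. Refed and sated flies thus differed in the food they ate (glucose alone or regular food) as well as in whether they had fasted, and these differences cannot be told apart. By the times given, fasted flies also went without food for longer than refed flies did before their glucose. No clock time of dissection is given here for sated flies, so time of day cannot be told apart either.

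Succinate dehydrogenase oxidises succinate to fumarate in the tricarboxylic acid (TCA) cycle and passes the electrons to ubiquinone, which makes it the one enzyme shared by the TCA cycle and the respiratory chain. SdhA carries the flavin cofactor and the succinate site, SdhB carries the iron-sulphur clusters, and SdhC and SdhD anchor the complex in the inner mitochondrial membrane and hold the ubiquinone site. SDHAF4 proteins bind the flavin-carrying SdhA before it joins SdhB. The name *Sirup* stands for starvation-upregulated protein.

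Gene counts per library ranged from 4957138 to 7897838, with a median of 7014586. Between 9.59% and 28.5% of the reads assigned by strand fell on the opposite strand of a gene, and this share was above 20% in 3 libraries (fasted replicates 1 and 2, sated replicate 2). Summed marker RNA, in CPM (read counts set against the TMM-scaled library total), was 6188 to 7231 for 4 neuronal genes and 2161 to 2524 for 4 glial genes over all libraries. The 5 muscle genes summed to 265 CPM in fasted replicate 2 and to at most 73.9 CPM in the other libraries. The starvation-responsive lipase gene *bmm* was lower in refed (log2 fold change −0.66 ± 0.08 SE, adjusted p = 0.0225) and in sated brains (−0.49 ± 0.07, adjusted p = 0.0270) than in fasted brains by edgeR's quasi-likelihood test with Benjamini-Hochberg adjustment over all genes, and it was lower in 3 of 3 libraries each time. The paper had already named *bmm* (brummer) as higher in fasted brains from these same data, so its p-values are no independent check. The samples are separate pools of brains, and p-values measure the spread between these pools.

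*Sirup* RNA was lower in sated brains than in fasted and refed brains, and the fasted and refed libraries overlapped. *Sirup* (FBgn0031971) lies on chromosome arm 2L, plus strand, from 7998869 to 7999676 (BDGP6, Ensembl annotation), with 2 transcripts of 2 exons each and a predicted protein of 118 residues. In fasted brains its level was 102.8, 90.1 and 87.4 CPM (mean 93.4 ± 8.22 SD, n = 3). In refed brains it was 90.6, 97.4 and 104.4 CPM (97.5 ± 6.89, n = 3). In sated brains it was 56.9, 56.9 and 56.7 CPM (56.8 ± 0.102, n = 3). Every sated library was below every fasted and every refed library. Fasted replicate 2, the library with the high muscle sum, lay between the other fasted libraries, and without it the sated versus fasted log2 fold change was −0.74.

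These levels rest on 324 to 762 reads a library. Counting error alone would give a sated library a standard deviation of 2.68 to 3.16 CPM, so the 3 sated values lay closer together than their counting error. This error covers the counting of reads alone, since no molecular identifiers mark separate molecules. The spread of 8.22 CPM in fasted and 6.89 CPM in refed brains was above the counting error of 3.33 to 4.37 CPM in those libraries.

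In fold changes, *Sirup* was 0.609 of its fasted level in sated brains (log2 fold change −0.72 ± 0.07 SE) and 1.03 times its fasted level in refed brains (0.05 ± 0.08). Between refed and sated brains, which enter no fasted library, the log2 fold change was 0.78 ± 0.07. Of all genes tested, 4.50% had a change at least as large in sated versus fasted brains and 1.48% in refed versus sated brains. Of the 5 genes, 0 passed an adjusted p of 0.05 in refed versus fasted brains, where 0.111% of 9025 genes tested did. *Sirup* alone passed in sated versus fasted brains (1 of 5, against 0.268% of 8957 genes) and in refed versus sated brains (1 of 5, against 0.179% of 8931 genes). The set was chosen on these contrasts, so its counts stand beside the background as a description only. The sated versus fasted call was lost when sated replicate 1 was left out, with the log2 fold change again at −0.72. It held under the other 16 of 17 alternatives, which reuse the libraries the gene was chosen on and add no support.

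**Figure D1:**
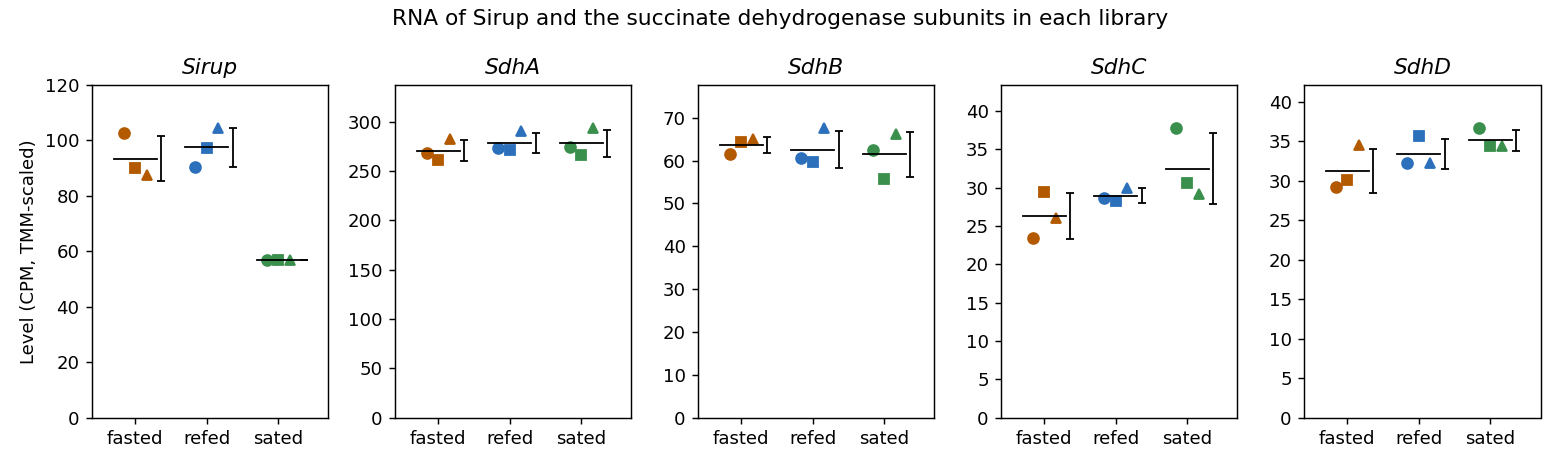
TMM-scaled level in CPM (y axis, from 0, with its own range in each panel) of *Sirup* and the 4 succinate dehydrogenase subunits in fasted, refed and sated brains. Circles, squares and triangles are replicates 1, 2 and 3 of a group, horizontal lines are group means and vertical bars are ± 1 SD; the 3 sated *Sirup* values sit at 56.7 to 56.9, below all other libraries, while the groups overlap for each subunit.

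Summed levels of retinal and fat body markers were higher in the 3 sated libraries. The 6 retinal genes summed to 1065 to 1206 CPM in sated brains, 503 to 928 CPM in fasted brains and 734 to 868 CPM in refed brains. Of these, *Arr1* (log2 fold change −0.52, adjusted p = 0.0477) and *trpl* (−0.58, adjusted p = 0.0473) were lower in refed than in sated brains by edgeR. The 5 fat body genes summed to 1719 to 2370 CPM in sated brains, against 1226 to 1497 CPM in fasted and 996 to 1455 CPM in refed brains. Nearly all of that sum was *apolpp*, at 994 to 2369 CPM, while the fat body storage gene *Fbp2* was at 0 in all 9 libraries and *Lsp2*, *Fbp1* and *Yp1* were at 1.40 CPM or less. The part of these tissues in the *Sirup* difference was not tested. In bulk RNA, fewer cells that express a gene and less RNA per cell cannot be told apart.

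The *Sirup* transcription unit meets its neighbour end to end. *Wwox*, a WW-domain oxidoreductase gene on the minus strand (7999670 to 8004286 on 2L), overlaps the 3' end of *Sirup* by 7 bp in the annotation. The annotation release used for the deposited counts is not given, so the overlap in it may differ. Unstranded counting left out between 140 and 279 *Sirup* reads a library, taken over both strands. This is the amount by which its counts on both strands together exceeded its unstranded count. Set against its stranded count over all libraries, it came to 39.3%. Unstranded counting leaves out reads that touch both genes, and the stranded count keeps them. With unstranded counts, the *Sirup* log2 fold changes were 0.11 in refed versus fasted, −0.68 in sated versus fasted and 0.79 in refed versus sated brains. *Wwox* itself was at 42.8, 37.0 and 29.8 CPM in fasted brains, 31.5, 32.4 and 33.7 CPM in refed brains and 30.4, 27.0 and 25.0 CPM in sated brains. Its sated libraries thus lay below all refed ones and overlapped the fasted ones, with log2 fold changes by edgeR of −0.17 in refed versus fasted (adjusted p = 0.784), −0.40 in sated versus fasted (adjusted p = 0.365) and 0.24 in refed versus sated brains (adjusted p = 0.364). The part of the neighbouring gene in the *Sirup* values was not tested beyond the stranded and unstranded counts given.

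The reads on the strand opposite to *Sirup* were 9.10% to 23.4% of its reads in fasted, 8.19% to 11.1% in refed and 10.8% to 20.8% in sated libraries. Without the 3 libraries that had over 20% opposite-strand reads in all, a choice made after seeing the data that leaves 1 fasted library, the log2 fold change was −0.63 in sated versus fasted brains and 0.77 in refed versus sated brains. In refed versus fasted brains it was then 0.15, in place of 0.05.

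None of the 4 subunits separated the groups. For *SdhA* (FBgn0261439), the flavoprotein gene, the level was 268.9, 261.2 and 282.2 CPM in fasted brains (271 ± 10.6, n = 3). Refed brains had 273.9, 271.1 and 290.8 CPM (279 ± 10.6), and sated brains had 274.6, 266.2 and 293.5 CPM (278 ± 13.9). Over the 9 libraries its coefficient of variation was 3.96%, the lowest of the 5 genes. The log2 fold changes were 0.03 in refed versus fasted brains (95% interval −0.07 to 0.12), 0.04 in sated versus fasted brains (−0.05 to 0.13) and −0.00 in refed versus sated brains (−0.10 to 0.10). *SdhA* lies on 2R from 19391863 to 19395971, minus strand, and encodes 661 residues.

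*SdhB* (FBgn0014028; 2R, 6807626 to 6809172, plus strand; 3 exons, 297 residues) encodes the iron-sulphur subunit. Its level was 61.4, 64.3 and 65.1 CPM in fasted brains (63.6 ± 1.91, n = 3). In refed brains it was 60.5, 59.7 and 67.5 CPM (62.6 ± 4.31), and in sated brains 62.4, 55.8 and 66.2 CPM (61.5 ± 5.26). The lowest value was in a sated library, and the other sated libraries lay within the range of the refed ones. The log2 fold changes were −0.04 (95% interval −0.17 to 0.09) in refed versus fasted, −0.05 (−0.19 to 0.10) in sated versus fasted and 0.02 (−0.14 to 0.18) in refed versus sated brains.

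The membrane anchor *SdhC* (FBgn0037873; 3R, 11208887 to 11209849, minus strand; 171 residues) had the most scattered levels of the subunits. It was at 23.5, 29.4 and 26.0 CPM in fasted brains (26.3 ± 2.96, n = 3). It was at 28.6, 28.2 and 30.0 CPM in refed brains (28.9 ± 0.936) and at 37.7, 30.5 and 29.2 CPM in sated brains (32.5 ± 4.59). Sated replicate 1 was the highest of the 9, and sated replicate 3 lay just below the highest fasted library. The log2 fold change was 0.13 (95% interval −0.06 to 0.32) in refed versus fasted and −0.17 (−0.37 to 0.04) in refed versus sated brains. In sated versus fasted brains it was 0.31 (0.07 to 0.54), and 0.18 without sated replicate 1.

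The other anchor gene, *SdhD* (FBgn0039112; 3R, 23759483 to 23760600, minus strand; 4 exons, 182 residues), was at 29.2, 30.2 and 34.5 CPM in fasted brains (31.3 ± 2.81, n = 3). It was at 32.3, 35.7 and 32.3 CPM in refed brains (33.4 ± 1.95) and at 36.7, 34.4 and 34.4 CPM in sated brains (35.1 ± 1.32). Fasted replicate 3 reached the level of 2 of the sated libraries. The log2 fold changes were 0.07 (95% interval −0.10 to 0.25) in refed versus fasted, 0.16 (−0.01 to 0.33) in sated versus fasted and −0.08 (−0.23 to 0.08) in refed versus sated brains. Without fasted replicate 3 the first was 0.17 and the sated versus fasted value was 0.24. With only the 6 libraries of low opposite-strand share, these values were −0.05 and 0.04.

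**Figure D2:**
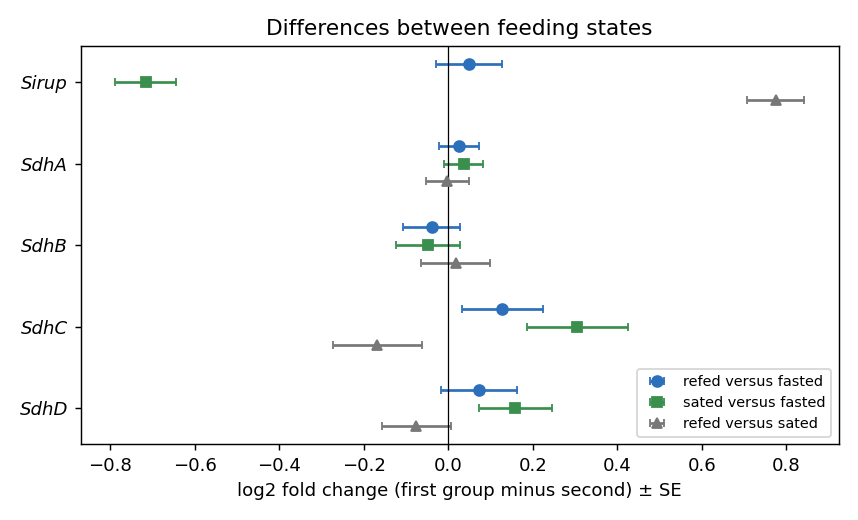
Fitted log2 fold change (x axis) of each of the 5 genes (y axis) in refed versus fasted (circles), sated versus fasted (squares) and refed versus sated brains (triangles). Bars are ± 1 SE; *Sirup* stands at −0.72 in sated versus fasted and at 0.78 in refed versus sated brains, and every subunit value lies between −0.17 and 0.31.

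*SdhA*, *SdhB* and *SdhD* also overlap a gene on the other strand at one end, *CG11257* by 38 bp, *CG15237* by 129 bp and *PTPMT1* by 124 bp, and *SdhC* overlaps none. The reads that unstranded counting left out, taken over both strands as for *Sirup*, were set against the stranded count. They came to 3.70% for *SdhA*, 47.8% for *SdhB*, 23.1% for *SdhD* and 0.727% for *SdhC*.

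Among all genes tested, 12.3% had groups that did not overlap in refed versus fasted brains, 15.0% in sated versus fasted brains and 18.3% in refed versus sated brains. Of the 5 genes, 0, 1 and 1 had non-overlapping groups in these comparisons, and *Sirup* was the one each time. An exact two-sided permutation test of 3 against 3 libraries cannot give a p below 0.1. The precision differed between the subunits, with a SE of 0.05 for *SdhA*, the most deeply counted, and of 0.10 to 0.12 for *SdhC*, which had 126 to 252 reads a library.

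On a per-length scale (CPM per kb of exon, from the stranded counts), the genes took a different order in sated brains. Over the 9 libraries the means were 113.6 ± 27.7 for *Sirup*, 100.3 ± 3.98 for *SdhA*, 51.3 ± 3.0 for *SdhB*, 37.2 ± 2.77 for *SdhD* and 32.3 ± 4.26 for *SdhC*. These levels were above 96.3%, 95.7%, 88.8%, 83.1% and 79.8% of the 9021 genes set beside them. *Sirup* was at 120.2 to 141.4 per kb in fasted and 124.6 to 143.5 in refed brains, above *SdhA* at 94.98 to 102.6 and 98.6 to 105.7. In sated brains *Sirup* was at 78.0 to 78.2 and *SdhA* at 96.8 to 106.7. *SdhA* was above *SdhB*, and *SdhB* above *SdhD*, with ranges that did not overlap over the 9 libraries. *SdhD* was above *SdhC* in 8 of 9 libraries, and those ranges overlapped. All these orders rest on the stranded counts. Per length, the unstranded counts put *SdhA* above *Sirup* in most libraries, fasted and refed ones among them. In fasted replicate 3, for example, they were 479 reads for *Sirup* (727 bp of exon) and 2262 for *SdhA* (2750 bp). They also put *SdhD* and *SdhC* each above *SdhB* in most libraries. In sated replicate 2, for example, they were 196 reads for *SdhB* (1219 bp), 195 for *SdhD* (894 bp) and 203 for *SdhC* (906 bp). The place of *SdhB* among the subunits thus depends on the counting.

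Of the summed per-length level of the 4 subunits, *SdhA* made up 45.9% ± 1.44 in fasted brains, 45.6% ± 0.462 in refed ones and 44.6% ± 1.71 in sated brains (SD, n = 3). *SdhC* made up 12.5% to 15.1%, 14.2% to 14.6% and 13.9% to 17.8%. *SdhD* lay at 15.7% to 18.3% over all libraries. The groups overlapped for these 3 subunits. The *SdhB* share was 23.9% to 24.7% in fasted, 22.4% to 24.0% in refed and 21.3% to 23.4% in sated libraries, so the fasted and sated libraries did not overlap. A share also depends on the other subunits, and the *SdhB* level itself overlapped between these groups (log2 fold change −0.05). The shares rest on the stranded counts, as the orders above do. No background of shares over other genes was computed.

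A ratio within a library does not depend on how libraries are scaled to each other, and was therefore computed for *Sirup*. Its count divided by the geometric mean of the 4 subunit counts was 1.77, 1.45 and 1.37 in fasted libraries (1.53 ± 0.212, n = 3). It was 1.45, 1.53 and 1.58 in refed libraries (1.52 ± 0.0671) and 0.815, 0.905 and 0.853 in sated libraries (0.858 ± 0.0450). All 3 sated ratios were below 1, and the other 6 were above 1. On the log2 scale the group means differed by −0.83 between sated and fasted, by 0.83 between refed and sated and by −0.00 between refed and fasted libraries, where the pooled SD within groups was 0.126.

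**Figure D3:**
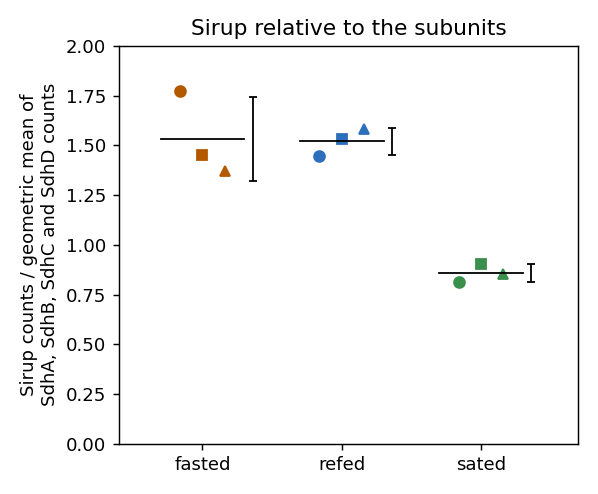
*Sirup* count divided by the geometric mean of the *SdhA*, *SdhB*, *SdhC* and *SdhD* counts (y axis, no unit) in each library of the 3 groups. Circles, squares and triangles are replicates 1, 2 and 3, lines are group means and bars are ± 1 SD; the sated libraries lie at 0.815 to 0.905 and the fasted and refed libraries at 1.37 to 1.77.

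The other genes of the complex's assembly and its paralogues were low or did not pass the test. Of the 6 relatives, 4 were expressed enough to test, and by edgeR 0 of 4 passed an adjusted p of 0.05 in any of the 3 comparisons (0 of 4 at an unadjusted p under 0.05 each time, and 0 by DESeq2). *CG14757*, the relative of human SDHAF2, which attaches the flavin to SdhA, was at 22.2 ± 1.30 CPM in fasted brains, 25.3 ± 2.16 in refed ones and 25.1 ± 2.65 in sated brains (n = 3). Its log2 fold change was 0.18 in refed versus fasted (adjusted p = 0.742), 0.18 in sated versus fasted (adjusted p = 0.622) and 0.00 in refed versus sated brains (adjusted p = 0.991). *CG34229* and *Sdhaf3*, relatives of SDHAF1 and SDHAF3, which act in the maturation of SdhB, had at most 24 reads in a library. *CG34229* was at 2.75 CPM in fasted brains, 2.08 in refed ones and 1.92 in sated brains, and *Sdhaf3* at 2.21, 1.63 and 2.03. The paralogue *SdhAL* was at 3.88, 3.71 and 3.26 CPM, but lies within *CG44837* on the same strand, so its reads are uncertain. *SdhBL* had 0 reads in 6 libraries and *SdhCL* in 4, and neither was tested.

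Other genes of the TCA cycle were examined to place the subunits among the enzymes they work with. Of the fumarase genes, which act on the product of succinate dehydrogenase, *Fum1* was not found among the identifiers. *Fum2* and *Fum3* were too low to test. *Fum4*, at mean levels of 1.19 to 1.45 CPM, was not tested in sated versus fasted brains. Of 26 genes of the cycle and of pyruvate dehydrogenase found in the files, 19 were tested in refed versus fasted, 18 in sated versus fasted and 19 in refed versus sated brains, and 0 passed by edgeR (2, 5 and 3 at an unadjusted p under 0.05, and 0 by DESeq2). The median log2 fold changes were 0.01, 0.04 and −0.01, beside −0.01, −0.00 and −0.00 over all genes tested. The 4 subunits had medians of 0.05, 0.10 and −0.04. The largest values in sated versus fasted brains were 0.18 for *Pdhb*, the pyruvate dehydrogenase E1 beta subunit (adjusted p = 0.303), and 0.14 for *Mdh2*, the mitochondrial malate dehydrogenase (adjusted p = 0.365). In refed versus fasted brains they were −0.36 for *CG1544* (adjusted p = 0.758) and 0.22 for *Fum4* (adjusted p = 0.929). In refed versus sated brains they were −0.28 for *CG1544* (adjusted p = 0.650) and 0.19 for *Pdha*, the E1 alpha subunit (adjusted p = 0.232).

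Other dehydrogenases also feed electrons to ubiquinone, among them the glycerol-3-phosphate dehydrogenases and dihydroorotate dehydrogenase. A further gene on this list, *Etf-QO*, was not found among the identifiers. Of 5 such genes found, 4, 5 and 5 were tested in the 3 comparisons, and 0 passed by edgeR (0 at an unadjusted p under 0.05 each time, and 0 by DESeq2). *Dhod*, the dihydroorotate dehydrogenase, was at 11.2 ± 0.827 CPM in fasted brains, 9.72 ± 0.474 in refed ones and 8.99 ± 0.769 in sated brains, with a log2 fold change of −0.22 in refed versus fasted (adjusted p = 0.758) and −0.32 in sated versus fasted brains (adjusted p = 0.523). *Gpo2* and *Gpo3* had larger values at mean levels of at most 2.18 CPM. They were −0.88 for *Gpo2* in refed versus fasted (adjusted p = 0.723), −0.36 in sated versus fasted (adjusted p = 0.839) and −0.51 in refed versus sated brains (adjusted p = 0.650), and −1.09 for *Gpo3* in refed versus sated brains (adjusted p = 0.436).

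For complexes I, III, IV and V, 31 of 31 nuclear genes on the list were tested, and 0 passed in any comparison by edgeR (2, 8 and 1 at an unadjusted p under 0.05 in refed versus fasted, sated versus fasted and refed versus sated brains, and 0 by DESeq2). Their log2 fold changes had medians of 0.04, 0.09 and −0.07. In sated versus fasted brains 28 of the 31 values were positive, beside 4460 of the 8957 genes tested, and 11 of the 31 genes had every sated library above every fasted one, beside 7.87% of all genes tested. The complex III gene *UQCR-6.4* had the largest values, 0.38 in refed versus fasted (adjusted p = 0.705) and 0.48 in sated versus fasted brains (adjusted p = 0.347), and *UQCR-Q*, of the same complex, had −0.24 in refed versus sated brains (adjusted p = 0.367). The *Sirup* value of −0.72 lay below all of the TCA cycle and respiratory chain values in sated versus fasted brains.

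**Figure D4:**
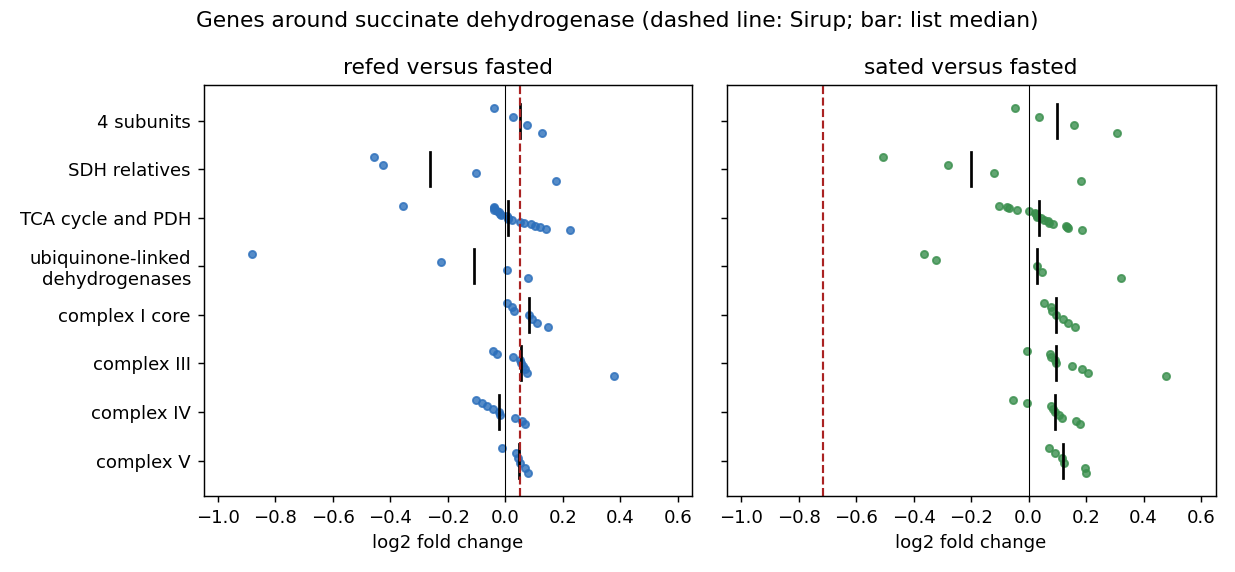
Log2 fold change (x axis) of each tested gene (points) in refed versus fasted and sated versus fasted brains, for the 4 subunits and the lists of related genes (y axis), with the list median as a black bar and *Sirup* as a dashed line. *Sirup* lies at 0.05 in the left panel, within the lists, and at −0.72 in the right panel, to the left of every point shown; the medians of complexes I, III, IV and V lie right of 0 there.

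The genes whose profile over the 9 libraries was nearest to that of *Sirup* were looked for among the 5942 other genes with a mean of at least 10 CPM. Likeness was the root mean square difference of log2(CPM + 1) values, each gene centred on its own mean. A gene flat over the 9 libraries would differ from *Sirup* by 0.355, and 2123 genes were nearer than that. The 5 nearest were *Rif1* (0.148), *Bhmt* (0.151), *Treh* (0.153), *Top3alpha* (0.153) and *ana1* (0.162). Of the subunits, *SdhB* was at 0.346 in place 1692, *SdhA* at 0.365 in place 2644, *SdhD* at 0.422 in place 4998 and *SdhC* at 0.479 in place 5652.

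These 5 genes differ in what they encode and in level. *Treh*, trehalase, which splits the haemolymph sugar trehalose into glucose, was the most abundant, at 1012 to 1037 CPM in fasted brains, 885 to 1032 CPM in refed and 682 to 723 CPM in sated brains. *Rif1*, a regulator of DNA replication timing, was at 14.0 ± 1.26 CPM in fasted brains, 15.3 ± 0.922 in refed ones and 9.31 ± 0.452 in sated brains (n = 3). *Bhmt*, named for betaine-homocysteine methyltransferase, was at 14.1 ± 1.60, 14.9 ± 1.89 and 9.34 ± 1.17 CPM. *Top3alpha*, a DNA topoisomerase, was at 21.5 ± 1.27, 22.1 ± 1.96 and 14.2 ± 2.20 CPM, and *ana1*, a centriole gene, at 37.3 ± 3.46, 39.1 ± 2.05 and 28.0 ± 1.41 CPM. In each of the 5 the sated libraries were below all fasted and refed libraries, a pattern that the choice by likeness favours.

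**Figure D5:**
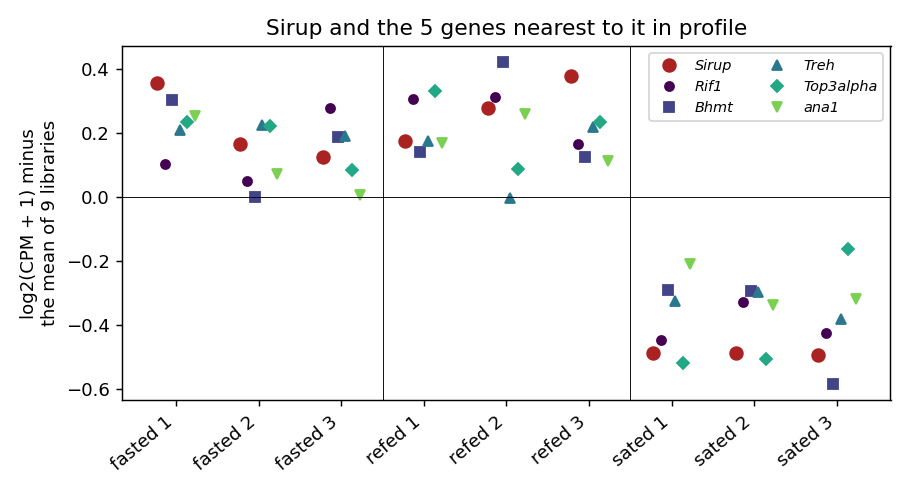
Centred log2(CPM + 1) (y axis) in the 9 libraries (x axis) of *Sirup* (large red circles) and the 5 genes with the smallest root mean square difference from it. All 6 genes lie below 0 in the 3 sated libraries, and *Sirup* lies above 0 in the 6 others.

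The insulin receptor gene *InR*, on the list of fasting-responsive genes, also had its lowest mean in sated brains. It was at 265 ± 1.58 CPM in fasted brains, 252 ± 33.6 in refed ones and 189 ± 4.86 in sated brains (n = 3). By edgeR it was lower in sated than in fasted brains (log2 fold change −0.49, adjusted p = 0.000498). It did not pass the threshold in refed versus fasted (−0.08, adjusted p = 0.852) or refed versus sated brains (0.41, adjusted p = 0.0729). The list was chosen with earlier results of these data known, so its p-values are no independent check. *Thor*, the translation repressor 4E-BP, had −0.62 in refed versus fasted (adjusted p = 0.705) and −0.92 in sated versus fasted brains (adjusted p = 0.244). Beside these, *bmm* was at 41.9 ± 1.65 CPM in fasted brains, 26.8 ± 1.34 in refed ones and 29.8 ± 0.772 in sated brains. The refed level of *bmm* was nearer to its sated level, and the refed level of *Sirup* nearer to its fasted one.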

How the data were processed

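RNA from central brains was ribo-depleted and sequenced from 9 libraries, 3 each of fasted, refed and sated flies, although the labels describe 4 replicates per condition. The authors deposited whole-number counts of reads per gene from STAR for 17489 gene identifiers, not normalized, as an unstranded count and one for each strand. Per the submitters' processing notes the build was BDGP6; the STAR version and the annotation release are not given in the sources used here. The 4 rows that name no gene (unmapped 11.4% to 13.2%, multimapping 7.19% to 16.0%, no feature 21.2% to 31.7% and ambiguous 1.16% to 1.60% of reads) were left out.

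The gene-strand counts were fitted in R 4.3.3 with edgeR 4.0.16 (filterByExpr, TMM, quasi-likelihood test, Benjamini-Hochberg over all genes, threshold 0.05) on the 6 libraries of each comparison. CPM were scaled by TMM over all 9 libraries. Intervals are normal 95% intervals from the SE of the fit. Of the identifiers, 17215 had a symbol in the gene table and 88 more were named from the study's supplement. Coordinates and lengths come from the Ensembl BDGP6 annotation. The members and the lists of genes were chosen with earlier results of these data known. The text names the members, every relative of the complex, in other lists the genes past the threshold or at most the 2 with the largest change, the 5 genes nearest to *Sirup* in profile and *Wwox*, its nearest gene. The fat body markers and the genes overlapping the other members and *SdhAL* fall outside this rule and were named after their values were seen. Also outside it are *Fum1*, *Fum2*, *Fum3* and *Etf-QO*, named because they were not found or not tested. Replicate libraries differed by more than sampling noise (chi-square per degree of freedom 2.31 to 8.88). Alternatives were DESeq2 1.42.0, other normalizations and filters, 1 fit of all libraries, a replicate block, unstranded counts, robust estimation, the opposite-strand share as a covariate, and leaving out each library. The script was tested on simulated data. Of 100 genes changed 1.5-fold, it recovered 53 in refed versus fasted, 53 in sated versus fasted and 60 in refed versus sated brains. A count of 0 passes in a list therefore does not exclude changes of that size. Promoter sequence was not used here.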

Additional observations from a re-analysis of the deposited data

Results flagged for a closer look

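The difference of *Sirup* from fasted brains was not the same in refed and in sated brains. The log2 fold change was 0.05 in refed versus fasted and −0.72 in sated versus fasted brains, and the contrast of the refed with the sated libraries, fitted on those 6 libraries alone, was 0.78 (SE 0.07), past the threshold of the fit across all genes. *Sirup* was higher in all 3 refed than in all 3 sated libraries. The gene was chosen for this pattern, so the contrast is given as a value and supports nothing further.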

How the results depend on the processing

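The log2 fold changes of *Sirup* moved by less than the spread between replicates in 50 of 51 combinations of comparison and alternative. They ranged over the left-out replicates from −0.77 to −0.65 in sated versus fasted, from 0.73 to 0.83 in refed versus sated and from 0.01 to 0.13 in refed versus fasted brains. The same held for 201 of 204 subunit values, 23 of 24 differences in the ratio to the subunits and all 51 counts of 0 calls in the lists of related genes. The exceptions for *Sirup* and its ratio came with the 6 libraries of low opposite-strand share alone (chosen after seeing the data), at 0.15 for both in refed versus fasted brains; the subunit exceptions, all *SdhD*, are given with its values. Over the left-out replicates the ratio differences ranged from −0.90 to −0.72 in sated versus fasted, 0.79 to 0.87 in refed versus sated and −0.08 to 0.11 in refed versus fasted brains. The main fit did not pair libraries by replicate number. Same-numbered libraries deviated together with r of 0.09, 0.36 and 0.36 in sated versus fasted brains, and from −0.09 to 0.17 in the other comparisons. Whether the numbers mark shared handling of sated and fasted libraries was not tested. A replicate block gave 6 genes called in refed versus fasted and 72 in sated versus fasted brains. It changed no call of the 5 genes or of the lists. Counts of all genes called depended on the processing, and the cause was not tested. In refed versus fasted brains (10 called) they were 33 with DESeq2, 31 with no filter, 20 with unstranded counts, 6 with the opposite-strand share as covariate, and 2 to 264 with a replicate left out (264 without fasted replicate 3). In sated versus fasted brains (24) they were 60 with DESeq2, 75 with no filter, 55 unstranded, 65 with robust estimation, 65 with the covariate, 204 with the low opposite-strand libraries alone, and 5 to 30 with a replicate left out (5 without sated replicate 1). In refed versus sated brains (16) they were 54 with DESeq2, 25 with upper-quartile normalization, 121 with no filter, 7 with at least 10 counts in every sample, 55 with all 9 libraries in 1 fit, 41 unstranded, 34 with robust estimation, and 2 to 75 with a replicate left out (75 without refed replicate 3, 2 without sated replicate 1). Low counts limit *CG34229*, *Sdhaf3*, *SdhAL*, *SdhBL* and *SdhCL*.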
